A study of Mus musculus with 24 samples.

Results

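The Slc25a genes encode the mitochondrial carriers, the protein family that moves metabolites across the inner mitochondrial membrane. Members were all protein-coding genes of the raw count table whose symbol starts with Slc25a, 47 of the 24537 genes listed. Each was read in all 24 whole-muscle RNA-seq libraries. The libraries came from 2-month-old mice of 2 genotypes, Acta1-Cre+/4Fhet (Cre+) and Acta1-Cre-/4Fhet (Cre-). All mice carried a doxycycline-responsive cassette (4F) for Oct4, Sox2, Klf4 and c-Myc (OSKM) and an rtTA activator behind a LoxP-STOP-LoxP block, both heterozygous, and all drank 1 mg/ml doxycycline (Dox), so that Cre- mice received the drug but not the activator. The Acta1 promoter drives Cre in skeletal myofibers, and whole muscle also holds vessel, nerve, connective and fat cells. The extensor digitorum longus (EDL, a fast-twitch muscle) and the soleus (SOL, a slow-twitch muscle) were taken after Dox for 2.5 days, 5.5 days and 8.5 days in separate groups, with 2 libraries in each of the 12 groups. The submitters treated the 5.5-day samples as outliers, so in the main tests these 8 libraries enter only the comparisons at that day.

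Carrier proteins are made in the cytosol, imported through the TIM22 complex and folded into the inner membrane, where each exchanges or admits a narrow set of substrates. In muscle the ADP/ATP carriers and the phosphate carrier supply the substrates of ATP synthase and export its product, the aspartate-glutamate and oxoglutarate carriers form the malate-aspartate shuttle, and the carnitine-acylcarnitine carrier brings in fatty acids. Other members carry nucleotides, coenzyme A, glycine, basic amino acids, iron or ATP-Mg. Several exist as paralogs that handle the same substrate in different tissues.

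The libraries held between 36088781 and 54679082 counts. Pou5f1 (Oct4) read 17.5 to 76.2 FPKM in Cre+ EDL at 2.5 and 8.5 days, 5.02 to 12.2 FPKM in Cre+ SOL at those days, and at most 0.0896 FPKM in any Cre- library. At 5.5 days it read 1.02 and 27.7 FPKM in the 2 Cre+ EDL libraries and at most 0.387 FPKM in Cre+ SOL. The fast-fibre markers were all higher in Cre- EDL (6 of 6) and the slow-fibre markers all higher in Cre- SOL (6 of 6). Levels below are in FPKM, the count scaled to the gene's exon length and to the library's total count. Fold changes come from edgeR with TMM scaling, and a gene was called when its Benjamini-Hochberg adjusted p was below 0.05 and its absolute log2 fold change above 0.5. The TMM factors were 1.07 to 1.21 in Cre+ EDL and 0.921 to 0.980 in Cre- EDL at 2.5 and 8.5 days, so a ratio of FPKM values in EDL sits above the fitted fold change.

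Levels within the family covered several orders of magnitude. Slc25a4, the ADP/ATP carrier of muscle and heart, held most of the family's transcripts, at 3947 ± 414 FPKM (SD, n = 4) in Cre- EDL of 2.5 and 8.5 days, or 74.5% of the summed family FPKM. Slc25a3, the mitochondrial phosphate carrier, followed at 490 ± 35.6 FPKM. Slc25a12 (aralar, an aspartate-glutamate carrier) at 203 ± 5.60 FPKM and Slc25a11 (the oxoglutarate-malate carrier) at 188 ± 18.5 FPKM came next and overlapped. Slc25a25, an ATP-Mg/phosphate carrier, was the fifth at 105 ± 52.9 FPKM, with a wide spread for its mean. Over the 16 libraries of these days, 4 members averaged at least 100 FPKM, 21 at least 10 FPKM and 9 less than 1 FPKM. Of the 47 members, 43 passed the filter on low counts. The other 4 were Slc25a54, with no count in any library, Slc25a21 (0 to 5 counts), Slc25a48 (0 to 8) and Slc25a31, the testis ADP/ATP carrier (0 to 12).

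**Figure D1:**
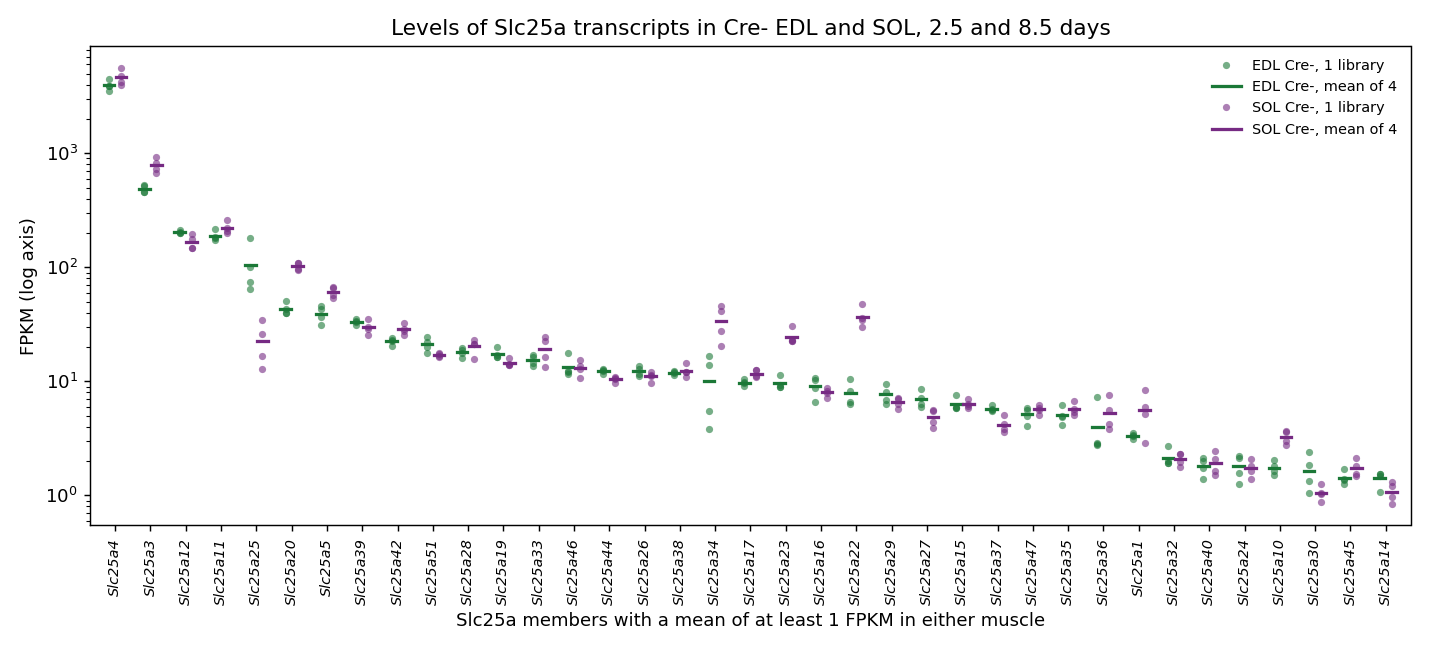
FPKM on a log axis for each member with a mean of at least 1 FPKM in either muscle. Points are the 4 Cre- libraries of 2.5 and 8.5 days in EDL (green) and SOL (purple) and bars are their means. Slc25a4 stood at 3947 FPKM in EDL and 4634 FPKM in SOL, far above all others, and Slc25a25, Slc25a22 and Slc25a34 showed the widest gaps between the muscles.

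In EDL, members were called in both directions under OSKM. After 2.5 days 18 of the 43 tested members were called (41.9%), 7 higher and 11 lower in Cre+, beside 24% of the 15372 genes tested (13.8% higher and 10.2% lower). After 8.5 days 11 members were called (25.6%), 4 higher and 7 lower, beside 14.1% of genes (7.63% higher and 6.50% lower). With TMM scaling, the higher calls were near the share of all genes at both days, and the lower calls were above it. The median log2 fold change of the 43 members was -0.15 after 2.5 days and -0.11 after 8.5 days, beside -0.05 and -0.02 over all genes. The 10 members called at both days kept their direction, as did all 1630 genes called at both days. Slc25a4, Slc25a11, Slc25a25, Slc25a33, Slc25a42 and Slc25a47 fell, and Slc25a13, Slc25a24, Slc25a37 and Slc25a38 rose. They made up 90.9% of the member calls after 8.5 days and 55.6% of those after 2.5 days, beside 75.0% and 44.2% for all genes called. Scaling by library size alone raised the median of all genes from -0.05 to 0.28 after 2.5 days and from -0.02 to 0.16 after 8.5 days, and the members' medians to 0.18 and 0.06. The split of calls was then 12 higher and 5 lower after 2.5 days, with the falls of Slc25a2, Slc25a11, Slc25a12, Slc25a23, Slc25a33 and Slc25a34 no longer called and Slc25a15, Slc25a17, Slc25a20, Slc25a32 and Slc25a46 called higher, and 5 higher and 5 lower after 8.5 days. The share of all genes called with this scaling is not given here, so that split cannot be set against it. Leaving out each of the 4 libraries in turn, 12 members kept their call after 2.5 days but only Slc25a24, Slc25a25 and Slc25a37 after 8.5 days, when the count was 3 without Cre+ replicate 1 and 7 without Cre- replicate 1. In whole muscle, fewer fibres and less RNA per fibre cannot be told apart.

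**Figure D2:**
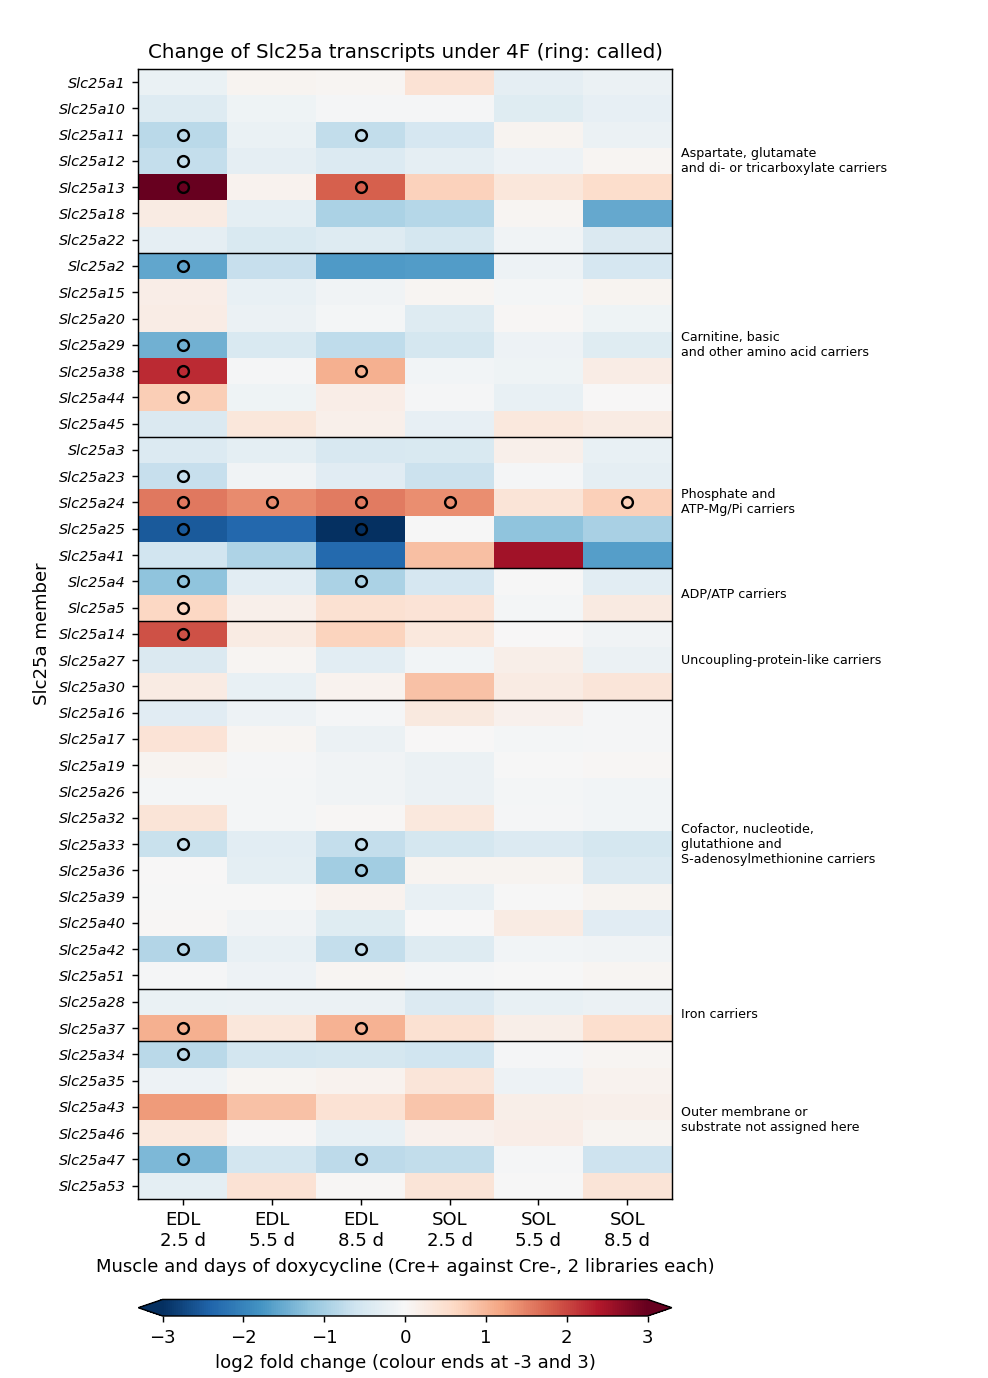
Log2 fold change of Cre+ against Cre- for the 43 tested members (rows, grouped by substrate) in 6 comparisons (columns, muscle and days of Dox, 2 libraries per genotype), with red higher and blue lower in Cre+ and a ring on each call. The EDL columns at 2.5 and 8.5 days hold 18 and 11 rings, and Slc25a24 is ringed in 5 of the 6 columns.

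The ADP/ATP carriers moved in opposite directions. These proteins exchange matrix ATP for cytosolic ADP, and Slc25a5 is the form of proliferating and many other tissues. Slc25a4 read 3897 and 3875 FPKM in Cre- EDL and 2082 and 2139 FPKM in Cre+ EDL after 2.5 days. After 8.5 days it read 4507 and 3509 FPKM in Cre- and 2029 and 2676 FPKM in Cre+. All 4 Cre+ libraries lay below all 4 Cre- libraries, and Slc25a4 fell by 1.21 ± 0.20 (log2, SE; edgeR adjusted p = 0.00082) and by 0.94 ± 0.20 (edgeR adjusted p = 0.00715). The second call was lost without Cre+ replicate 1 (-0.71, adjusted p = 0.0878) or without Cre- replicate 1 (-0.76, adjusted p = 0.0596). Slc25a5 read 36.5 and 45.8 FPKM in Cre- EDL and 70.1 and 89.5 FPKM in Cre+ EDL after 2.5 days, and it rose by 0.62 ± 0.19 (edgeR adjusted p = 0.0262), a call lost without Cre+ replicate 2 (0.48, adjusted p = 0.192) or Cre- replicate 1 (0.44, adjusted p = 0.206). After 8.5 days its values were 31.4 and 43.2 FPKM in Cre- and 61.7 and 55.5 FPKM in Cre+, a difference of 0.47 ± 0.19 (edgeR adjusted p = 0.113).

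The balance of the 2 paralogs shifted accordingly, a ratio that no scaling between libraries can alter. Slc25a4 transcripts per length outnumbered those of Slc25a5 by 81.1 to 144 times in the 4 Cre- EDL libraries of 2.5 and 8.5 days and by 23.9 to 48.2 times in the 4 Cre+ EDL libraries. In SOL of the same days the ratio was 59.6 to 83.8 in Cre- and 37.6 to 55.8 in Cre+. The genotypes did not overlap in either muscle at these days. At 5.5 days they did not overlap in EDL, where the ratio was 88.8 and 107 in Cre+ against 130 and 138 in Cre-, but did in SOL, at 114 and 123 in Cre+ against 121 and 109 in Cre-. The share of Slc25a4 in the family's FPKM was 70.7% to 77.2% in Cre- EDL and 60.9% to 69.6% in Cre+ EDL at 2.5 and 8.5 days. The summed FPKM of all other members overlapped between the genotypes, at 1262 to 1454 in Cre- and 1127 to 1372 in Cre+. FPKM carry no TMM scaling. The TMM factors given above raise each of these Cre- sums and lower each Cre+ sum, after which the genotypes no longer overlap.

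The 4 ATP-Mg/phosphate carriers, which set the adenine nucleotide content of the matrix, held the largest fall and the most frequent rise of the family. Slc25a25 read 64.3 and 101 FPKM in Cre- EDL and 27.1 and 9.03 FPKM in Cre+ EDL after 2.5 days, and 73.6 and 181 FPKM against 21.7 and 11.1 FPKM after 8.5 days. It fell by 2.51 ± 0.54 (log2, SE; edgeR adjusted p = 0.00433) and by 3.16 ± 0.55 (edgeR adjusted p = 0.00257), and the calls held without any 1 of the 4 libraries, with values from -3.58 (without Cre+ replicate 1) to -1.90 (without Cre+ replicate 2) after 2.5 days and from -3.67 (without Cre- replicate 1) to -2.35 (without Cre- replicate 2) after 8.5 days. Cre- libraries themselves spanned 64.3 to 181 FPKM. Slc25a24 read 1.56 and 1.27 FPKM in Cre- EDL and 5.44 and 5.18 FPKM in Cre+ EDL after 2.5 days, and 2.14 and 2.21 FPKM against 7.33 and 7.13 FPKM after 8.5 days. It rose by 1.58 ± 0.14 (edgeR adjusted p = 1.49e-05) and by 1.55 ± 0.14 (edgeR adjusted p = 2.11e-05) and held both calls without any 1 of the 4 libraries. Slc25a23 fell after 2.5 days, from 8.99 and 9.32 FPKM to 8.12 and 6.10 FPKM (-0.69 ± 0.17, edgeR adjusted p = 0.00841), a call lost without Cre+ replicate 2 (-0.46, adjusted p = 0.1) or Cre- replicate 2 (-0.64, adjusted p = 0.0571). An antisense transcript overlaps its exons, and the strand setting of the count is not stated. Of the summed FPKM of Slc25a23, Slc25a24 and Slc25a25, with Slc25a41 left out, Slc25a25 made up 84.6% to 94.2% in Cre- EDL of 2.5 and 8.5 days. In Cre+ EDL of these days it made up 40.7% to 66.7%. Slc25a3, the abundant phosphate carrier, did not pass the size threshold in the main fit (-0.42 ± 0.14 and -0.48 ± 0.14, edgeR adjusted p = 0.0432 and 0.0367). The edgeR fit of all 24 libraries called it after 8.5 days, whereas both DESeq2 fits did not.

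The promoter of Slc25a25 is shown because this gene had the largest fall. The sequence is the 250 bases upstream of the start of the transcript counted (GRCm38.p6, RefSeq, chr2:32424067-32424316, minus strand, 5′ to 3′), with TGACGTCA, the palindromic cAMP response element, in capitals.
Slc25a25: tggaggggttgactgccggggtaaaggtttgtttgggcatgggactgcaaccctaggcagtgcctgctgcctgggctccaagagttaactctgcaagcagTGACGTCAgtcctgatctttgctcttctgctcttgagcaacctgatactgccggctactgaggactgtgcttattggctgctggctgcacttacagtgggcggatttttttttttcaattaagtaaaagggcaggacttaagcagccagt
This motif was looked for after the data had been seen. It occurs in 1.79% of the 32851 promoter windows of the RefSeq table (250 bases before to 50 after each start) and in 2 of the 46 windows of the 36 members matched by symbol, 1 of the 3 Slc25a25 windows and a Slc25a36 window. A match describes the letters and is not evidence of binding.

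**Figure D3:**
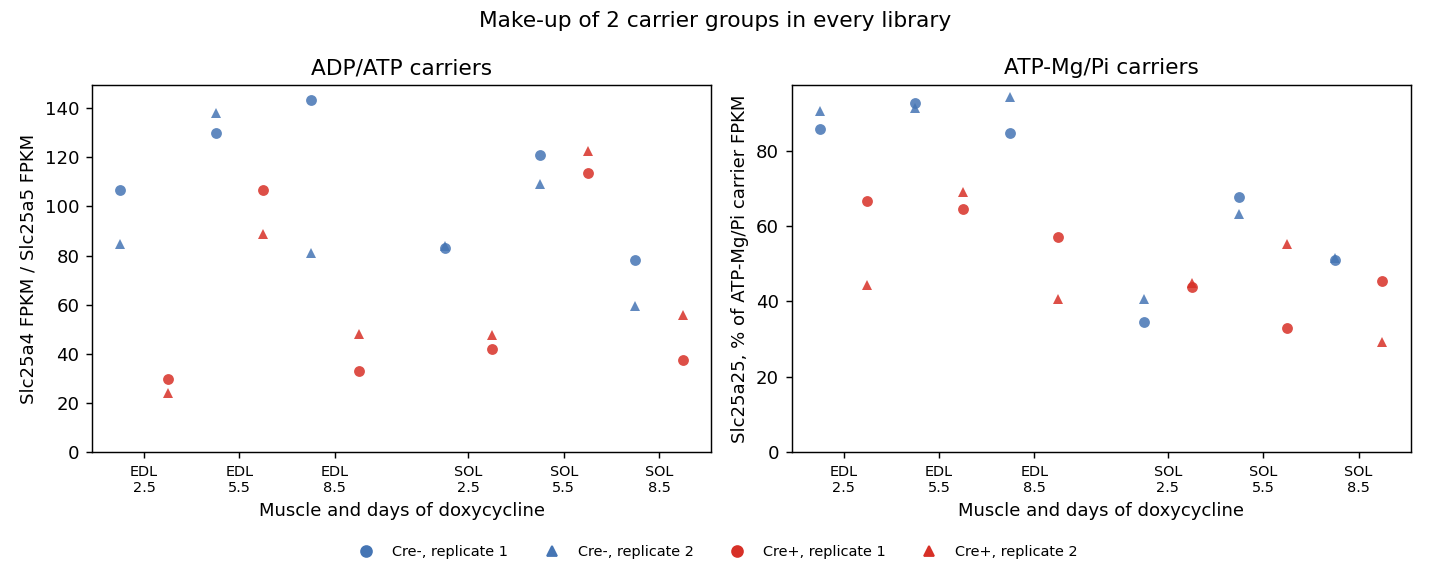
Left, FPKM of Slc25a4 divided by FPKM of Slc25a5. Right, Slc25a25 as a percent of the summed FPKM of Slc25a23, Slc25a24 and Slc25a25. Each point is 1 library (circle replicate 1, triangle replicate 2; blue Cre-, red Cre+) by muscle and days of Dox. In EDL the ratio was 81.1 to 144 in Cre- and 23.9 to 48.2 in Cre+ at 2.5 and 8.5 days, and the Slc25a25 share was lower in Cre+ at all 3 times.

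Among the carriers of aspartate, glutamate and di- or tricarboxylates, the 2 aspartate-glutamate carriers parted. Slc25a13 (citrin), the form of liver and many non-muscle tissues, read 0.183 and 0.283 FPKM in Cre- EDL and 1.70 and 5.09 FPKM in Cre+ EDL after 2.5 days (25 and 40 counts against 252 and 699). It rose by 3.50 ± 0.46 (log2, SE; edgeR adjusted p = 0.000202), the largest rise of the family. The call held without any 1 of the 4 libraries, at 2.58 without Cre+ replicate 2 and 4.06 without Cre+ replicate 1. After 8.5 days it read 0.259 and 0.311 FPKM in Cre- and 1.38 and 0.891 FPKM in Cre+ (1.79 ± 0.45, edgeR adjusted p = 0.0174), a call lost without Cre+ replicate 1 (1.51, adjusted p = 0.136) or Cre- replicate 1 (1.66, adjusted p = 0.117). Slc25a12, its muscle paralog, fell after 2.5 days, from 211 and 198 FPKM to 158 and 158 FPKM (-0.70 ± 0.12, edgeR adjusted p = 0.00107), and stood at 200 and 204 FPKM against 168 and 178 FPKM after 8.5 days (-0.40, not called). Slc25a12 therefore remained by far the more abundant of the pair in every library. Slc25a11, which exchanges oxoglutarate for malate, fell at both days, from 173 and 179 FPKM to 128 and 125 FPKM and from 215 and 185 FPKM to 121 and 147 FPKM (-0.80 ± 0.14 and -0.75 ± 0.14, edgeR adjusted p = 0.00124 and 0.00382). Its second call was lost without Cre+ replicate 1 (-0.57, adjusted p = 0.0593). The other tested members of the group, the citrate carrier Slc25a1, the dicarboxylate carrier Slc25a10 and the glutamate carriers Slc25a18 and Slc25a22, were not called in EDL at either day.

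Of the carriers of carnitine and amino acids, Slc25a38 was the one called at both days. This mitochondrial glycine carrier feeds haem synthesis. It read 12.1 and 11.7 FPKM in Cre- EDL and 44.2 and 98.3 FPKM in Cre+ EDL after 2.5 days, and 11.3 and 12.2 FPKM against 32.0 and 24 FPKM after 8.5 days. It rose by 2.24 ± 0.27 (log2, SE; edgeR adjusted p = 0.00011) and by 1.06 ± 0.26 (edgeR adjusted p = 0.0152). The first value was 1.61 without Cre+ replicate 2. The second call was lost without Cre+ replicate 1 (0.90, adjusted p = 0.131) or Cre- replicate 1 (0.99, adjusted p = 0.102). Slc25a44, the branched-chain amino acid carrier, rose after 2.5 days from 12.4 and 11.5 FPKM to 18.3 and 32.0 FPKM (0.73 ± 0.17, edgeR adjusted p = 0.00754), but not without Cre+ replicate 2 (0.33, adjusted p = 0.0881) or Cre- replicate 2 (0.70, adjusted p = 0.0551). Slc25a29, a carrier of basic amino acids, fell after 2.5 days from 8.08 and 9.49 FPKM to 5.05 and 3.01 FPKM (-1.44 ± 0.24, edgeR adjusted p = 0.000894). After 8.5 days it read 6.31 and 6.86 FPKM in Cre- and 3.88 and 4.96 FPKM in Cre+, without a call in the main fit. Both DESeq2 fits and the 24-library edgeR fit called it, as did edgeR with no filter, with at least 10 counts in every library or with DESeq2 size factors. Slc25a2, an ornithine carrier, was called lower after 2.5 days on 16 and 21 counts against 7 and 9 (-1.56 ± 0.51, edgeR adjusted p = 0.0364). It lost the call without any 1 of the 4 libraries (-1.76 to -1.35). Slc25a20, the carnitine-acylcarnitine carrier and the most abundant of the group, read 39.8 and 39.5 FPKM against 56.2 and 60.1 FPKM after 2.5 days, with a TMM-scaled difference of 0.22 that was not called.

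In Cre+ EDL of 2.5 days, replicate 2 lay above replicate 1 for Slc25a13, Slc25a38, Slc25a14 and Slc25a44 and below it for Slc25a25 and Slc25a29. Pou5f1 read 70.5 FPKM in replicate 2 and 17.5 FPKM in replicate 1. After 8.5 days it read 76.2 FPKM in Cre+ replicate 1 and 57.7 FPKM in replicate 2, where Slc25a38 stood at 32.0 and 24 FPKM, below both 2.5-day values. The part of the OSKM level in these results was not tested.

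**Figure D4:**
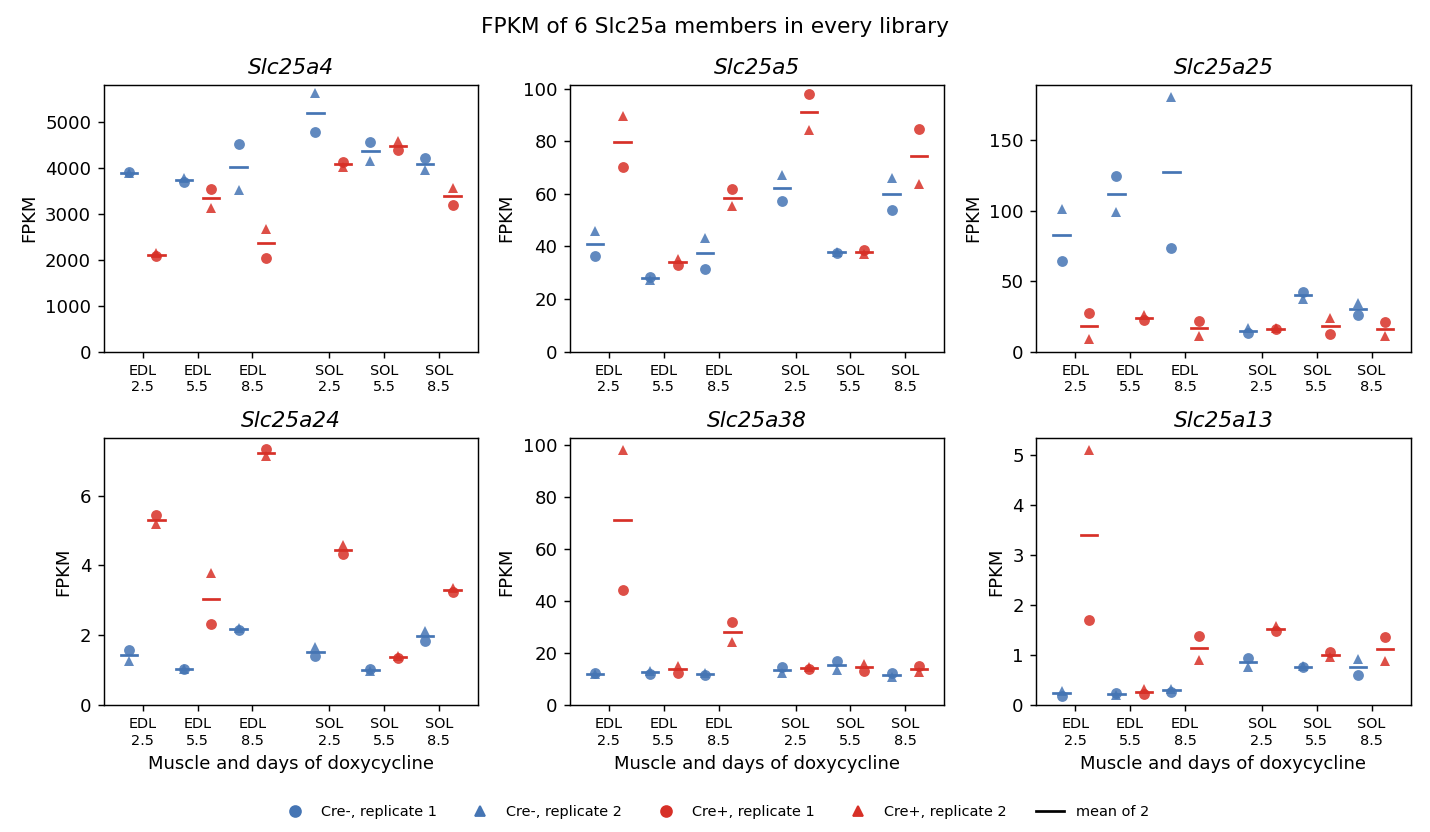
FPKM of Slc25a4, Slc25a5, Slc25a25, Slc25a24, Slc25a38 and Slc25a13 in all 24 libraries by muscle and days of Dox (linear axes from 0; blue Cre-, red Cre+; circle replicate 1, triangle replicate 2; bar, mean of 2). The 6 members were picked with the results known. The 2 Cre+ EDL libraries of 2.5 days were 44.2 and 98.3 FPKM for Slc25a38.

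The 11 carriers of cofactors, nucleotides, glutathione and S-adenosylmethionine held falls and no rise with TMM scaling. With library size alone, Slc25a17 and Slc25a32 were called higher after 2.5 days, the fall of Slc25a33 was lost at both days and that of Slc25a36 after 8.5 days. Slc25a42, which imports coenzyme A, read 23.9 and 23.1 FPKM in Cre- EDL and 16.9 and 15.1 FPKM in Cre+ EDL after 2.5 days, and 22.8 and 20.5 FPKM against 14.2 and 15.7 FPKM after 8.5 days. It fell by 0.88 ± 0.14 (log2, SE; edgeR adjusted p = 0.000543) and by 0.71 ± 0.14 (edgeR adjusted p = 0.00416, lost without Cre+ replicate 1, -0.59 with adjusted p = 0.0682). Slc25a33, a pyrimidine nucleotide carrier, fell by 0.67 ± 0.18 and by 0.71 ± 0.18 (edgeR adjusted p = 0.0138 and 0.0174), from 14.5 to 16.2 FPKM and from 13.7 to 17.1 FPKM in Cre- to 12 to 12.2 FPKM and 10.4 to 10.9 FPKM in Cre+. It lost the first call without Cre+ replicate 2 (-0.61, adjusted p = 0.102) or Cre- replicate 1 (-0.62, adjusted p = 0.0807), and the second without Cre+ replicate 1 (-0.63, adjusted p = 0.154) or Cre- replicate 2 (-0.53, adjusted p = 0.0934). An antisense transcript overlaps its exons as well. Slc25a36, the second pyrimidine nucleotide carrier, was called lower after 8.5 days (-1.05 ± 0.295, edgeR adjusted p = 0.0299) on values of 7.36 and 2.91 FPKM in Cre- and 2.96 and 2.65 FPKM in Cre+. Its other Cre- EDL libraries read 2.19 to 3.23 FPKM, and without Cre- replicate 1 the difference was -0.25 (adjusted p = 0.436). It also lost the call without either Cre+ library (-1.08 and -1.02, adjusted p = 0.154 and 0.124). The remaining 8, among them the glutathione carriers Slc25a39 and Slc25a40, the S-adenosylmethionine carrier Slc25a26 and the NAD carrier Slc25a51, were not called in EDL.

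The 2 iron carriers, called mitoferrins, differed. Slc25a37 (mitoferrin-1, the form of erythroid cells) read 5.72 and 6.25 FPKM in Cre- EDL and 15.7 and 16.1 FPKM in Cre+ EDL after 2.5 days, and 5.49 and 5.59 FPKM against 14.7 and 11.2 FPKM after 8.5 days. It rose by 1.07 ± 0.13 (log2, SE; edgeR adjusted p = 0.000147) and by 1.04 ± 0.13 (edgeR adjusted p = 0.000343) and held both calls without any 1 of the 4 libraries. Slc25a28 (mitoferrin-2), the more widespread form, was not called (-0.20 and -0.17). The 5 erythroid markers Hba-a1, Hba-a2, Hbb-bs, Hbb-bt and Alas2 had no call at either day, with medians of -0.50 and 0.15. Opposite-strand transcripts overlap exons of Slc25a37, so their reads cannot be told apart from its own if strand was not used.

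Of the uncoupling-protein-like carriers, Slc25a14 (brain mitochondrial carrier protein 1) rose after 2.5 days, from 1.54 and 1.49 FPKM to 4.57 and 9.82 FPKM (1.90 ± 0.32, log2, SE; edgeR adjusted p = 0.000871), at 1.31 without Cre+ replicate 2. After 8.5 days it read 1.06 and 1.55 FPKM in Cre- and 2.80 and 1.95 FPKM in Cre+, which was not called (0.67). Slc25a27 and Slc25a30 were not called in EDL. Among members with no substrate assigned here, Slc25a47 fell from 5.65 and 5.90 FPKM to 3.07 and 2.60 FPKM and from 4.94 and 4.04 FPKM to 2.66 and 3.18 FPKM (-1.35 ± 0.18 and -0.79 ± 0.18, edgeR adjusted p = 0.000191 and 0.00925). The second call was lost without Cre+ replicate 1 (-0.62, adjusted p = 0.122) or Cre- replicate 1 (-0.66, adjusted p = 0.071). Slc25a34 fell after 2.5 days, from 5.51 and 3.86 FPKM to 2.86 and 3.85 FPKM (-0.81 ± 0.25, edgeR adjusted p = 0.0264), and lost the call without Cre+ replicate 1 (-0.66, adjusted p = 0.133), Cre+ replicate 2 (-0.99, adjusted p = 0.059) or Cre- replicate 1 (-0.56, adjusted p = 0.208).

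The promoters of Slc25a13 and Slc25a14, which rose after 2.5 days, each hold CACGTG, the E-box bound by Myc-Max dimers, shown in capitals in the 250 bases upstream of the start (GRCm38.p6, RefSeq, 5′ to 3′; Slc25a13 at chr6:6217174-6217423, minus strand; Slc25a14 at chrX:48623328-48623577, plus strand).
Slc25a13: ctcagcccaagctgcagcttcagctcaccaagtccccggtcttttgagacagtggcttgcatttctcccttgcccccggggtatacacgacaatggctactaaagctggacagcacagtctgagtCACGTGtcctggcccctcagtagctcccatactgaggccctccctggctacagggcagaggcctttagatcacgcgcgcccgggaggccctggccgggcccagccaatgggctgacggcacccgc
Slc25a14: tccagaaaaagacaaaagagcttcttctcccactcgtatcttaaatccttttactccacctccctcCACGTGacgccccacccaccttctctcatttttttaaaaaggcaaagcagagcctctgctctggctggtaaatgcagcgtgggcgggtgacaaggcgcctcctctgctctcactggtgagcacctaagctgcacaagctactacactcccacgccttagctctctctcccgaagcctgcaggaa
The hexamer is a palindrome and is found in 7.15% of all windows of the table and in 8 of the 46 member windows, those of Slc25a1, Slc25a13, Slc25a14, Slc25a15, Slc25a31, Slc25a33 and Slc25a36. Of these, with TMM scaling in EDL, Slc25a33 was called lower at both days and Slc25a36 after 8.5 days. Slc25a1 and Slc25a15 were not called, and Slc25a31 did not pass the filter on low counts. The part of the motif in the changes was not tested. Of the other members that rose after 2.5 days, Slc25a5, Slc25a24 and Slc25a38 had windows in the table, and none of these held the hexamer. The promoters printed were chosen after the data had been seen.

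In SOL, edgeR called 1 member after 2.5 days and 1 after 8.5 days, and it was the same one. An unadjusted p under 0.05 was reached by 17 of the 43 members after 2.5 days, beside 2053 of 15372 genes. After 8.5 days it was reached by 5 members, beside 1015 genes. DESeq2 on the 4 libraries also called Slc25a4, Slc25a11, Slc25a23, Slc25a34 and Slc25a47 after 2.5 days and Slc25a25 after 8.5 days. The share of all genes that DESeq2 called is not given here, and the shares below are those of edgeR. Slc25a24 read 1.40 and 1.65 FPKM in Cre- and 4.32 and 4.57 FPKM in Cre+ after 2.5 days, and rose by 1.39 ± 0.14 (log2, SE; edgeR adjusted p = 0.000868). Only 0.384% of genes were called in that comparison, 0.345% higher and 0.0390% lower. After 8.5 days it read 1.82 and 2.10 FPKM in Cre- and 3.23 and 3.34 FPKM in Cre+ (0.71 ± 0.14, edgeR adjusted p = 0.0372), in a comparison that called 0.631% of genes, 0.332% higher and 0.299% lower. The 2.5-day call held without any 1 of the 4 libraries (1.31 to 1.48), whereas the 8.5-day call was lost without each of them (0.65 to 0.77, adjusted p = 0.178 to 0.236) and with the replicate block (0 members). Slc25a4 read 4769 and 5620 FPKM in Cre- SOL and 4118 and 4025 FPKM in Cre+ SOL after 2.5 days, and 4206 and 3943 FPKM against 3190 and 3561 FPKM after 8.5 days. Neither difference was called by edgeR (-0.50 ± 0.20 and -0.31 ± 0.20, edgeR adjusted p = 0.293 and 0.905), while DESeq2 on the 4 libraries called the first. Liver markers were lower in Cre+ SOL after 8.5 days (8 of 8 called, summed 1.24 to 1.44 FPKM against 24.3 and 118 FPKM in Cre-). Slc25a13, Slc25a18 and Slc25a47 are also expressed in liver. Slc25a18 read 0.693 and 1.61 FPKM in those 2 Cre- libraries and 0.667 and 0.148 FPKM in Cre+, and the part of liver RNA in it was not tested.

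The change itself differed between the muscles for 2 members after 2.5 days, or 4.65% of those tested. The difference of the log2 fold changes, EDL minus SOL, was 2.31 ± 0.37 (SE) for Slc25a38 (edgeR adjusted p = 0.00607) and 2.81 ± 0.61 for Slc25a13 (edgeR adjusted p = 0.025), in a test that called 4.25% of genes (3.36% higher and 0.891% lower in EDL). Slc25a38 in SOL read 14.4 and 12.2 FPKM in Cre- and 13.7 and 14.4 FPKM in Cre+, and Slc25a13 read 0.943 and 0.755 FPKM in Cre- and 1.48 and 1.57 FPKM in Cre+. Slc25a38 held its call without any 1 of the 8 libraries (1.69 to 2.75), but Slc25a13 in only 2 of the 8 cases (1.89 to 3.37). With the 2 muscles of a mouse as a block, 5 members were called, Slc25a14 (1.49, adjusted p = 0.0395), Slc25a25 (-2.69, adjusted p = 0.0166) and Slc25a37 (0.61, adjusted p = 0.0452) joining these 2. Slc25a25 in SOL read 12.8 and 16.6 FPKM in Cre- and 15.9 and 16.7 FPKM in Cre+ after 2.5 days, with the groups overlapping. After 8.5 days no member passed (8 at an unadjusted p under 0.05, beside 0.592% of genes called, 0.533% of all genes being higher; DESeq2 called 1). Slc25a24 came nearest, at 0.84 ± 0.19 (edgeR adjusted p = 0.0833). Between the 2 EDL days no member's change differed by the test (0.00% of the 15372 genes called by edgeR, 7 members at an unadjusted p under 0.05, and 0 members by DESeq2).

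At 5.5 days, Slc25a24 was the only member that edgeR called in EDL in the fit of all 24 libraries, beside 0.304% of genes. It read 1.03 and 1.03 FPKM in Cre- and 2.31 and 3.78 FPKM in Cre+ (1.42 ± 0.18, log2, SE; edgeR adjusted p = 0.00137), and lost the call without Cre- replicate 1 (1.41, adjusted p = 0.0539) or with edgeR on the 4 libraries alone (1.45, adjusted p = 0.254). Slc25a25 read 125 and 99.3 FPKM in Cre- and 22.2 and 25.8 FPKM in Cre+, a difference of -2.36 ± 0.50 with an edgeR adjusted p of 0.0543. Slc25a25 was called with edgeR on the 4 libraries alone, with no filter on low counts and by both DESeq2 fits. The Cre+ library with 1.02 FPKM of Pou5f1 held 22.2 FPKM of Slc25a25 and 2.31 FPKM of Slc25a24, and the one with 27.7 FPKM held 25.8 and 3.78 FPKM. Over all 12 EDL libraries, the 6 Cre- values of Slc25a25 ran from 64.3 to 181 FPKM and the 6 Cre+ values from 9.03 to 27.1 FPKM. Slc25a38 stood at 11.9 and 13.2 FPKM in Cre- and 12.2 and 14.9 FPKM in Cre+, and Slc25a13 at 0.242 and 0.194 FPKM against 0.208 and 0.314 FPKM, both overlapping. In SOL no member was called (0.00% of genes called by edgeR, 3 members at an unadjusted p under 0.05, and 0 members by DESeq2). Slc25a24 read 1.03 and 0.968 FPKM in Cre- and 1.33 and 1.39 FPKM in Cre+, and Slc25a25 read 42.5 and 37.2 FPKM against 12.2 and 23.5 FPKM.

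Between the muscles of Cre- mice (4 libraries each), 13 of the 43 tested members differed, 4 higher and 9 lower in EDL, beside 21.9% of genes (10.8% higher and 11.1% lower). With library size alone the split was 3 higher and 10 lower, with the share of all genes in that setting not given here. Slc25a25 was the member most enriched in the fast muscle, at 105 ± 52.9 FPKM (SD) in EDL and 22.5 ± 9.65 FPKM in SOL (2.39 ± 0.38, log2, SE; edgeR adjusted p = 0.000405). Higher in EDL by less were Slc25a30 (0.68), Slc25a27 (0.63) and Slc25a37 (0.57), of which Slc25a30 overlapped between the muscles. The slow muscle held more of the glutamate carrier Slc25a22, at 29.9 to 47.7 FPKM against 6.33 to 10.5 FPKM in EDL (-2.15 ± 0.16, edgeR adjusted p = 1.06e-06). Slc25a34 (-1.84 ± 0.17) and Slc25a23 (-1.26 ± 0.12) were lower in EDL at the same adjusted p of 5.02e-06. Slc25a20 read 94.5 to 108 FPKM in SOL and 39.5 to 50.2 FPKM in EDL (-1.15 ± 0.08, edgeR adjusted p = 5.96e-07), and Slc25a3 788 ± 115 FPKM in SOL and 490 ± 35.6 FPKM in EDL (-0.58 ± 0.10, edgeR adjusted p = 0.000754). Slc25a13 (-1.54 ± 0.32, edgeR adjusted p = 0.0029) was also lower in EDL, as were Slc25a10 (-0.82), Slc25a5 (-0.54) and Slc25a18 (-2.12, on 5 to 18 counts in EDL). Slc25a5 fell short of the size threshold without any 1 of 4 libraries, both replicates 1 of EDL and both replicates 2 of SOL (-0.49 to -0.43). Slc25a4 did not differ by the test (-0.13 ± 0.14, edgeR adjusted p = 0.524). Adipocyte markers were higher in SOL (6 of 6 tested, Ucp1 at 0 to 0.0319 FPKM not tested, summed 395 to 714 FPKM against 240 to 325 FPKM in EDL), liver markers stood at 24.3 and 118 FPKM in 2 of the 4 SOL libraries, and satellite cell markers were higher in SOL (5 of 5). The part of these cells in the differences was not tested.

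The enzymes and pores that work with the carriers moved in EDL as follows, with no call in SOL at any day. Of the shuttle enzymes, 5 of 6 fell after 2.5 days and 4 of 6 after 8.5 days (medians -1.0 and -0.66), beside 10.2% and 6.50% of all genes called lower. These counts are with TMM scaling. Mdh2 (901 FPKM on average), Mdh1 (607 FPKM) and Got2 (257 FPKM) were the most abundant. Got1 and Mdh1, the cytosolic partners of Slc25a11 and Slc25a12, changed by -1.19 and -1.17 after 2.5 days and by -0.76 and -0.86 after 8.5 days, and the exception at 2.5 days was Got2. Of the users of exported ATP, Ckm, Ckmt2 and Ak1 fell at both days (3 of 5). Of 9 tested carriers and pores outside the Slc25a symbols, Mpc1 and Mpc2, which form the pyruvate carrier, and Vdac3 fell at both days, while the more abundant Vdac1 and Vdac2 were not called.

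Of the 4 carnitine shuttle enzymes, Cpt1b (-1.06 and -0.65) and Crat (-0.77 and -0.61) fell at both days and Cpt1a rose after 2.5 days (0.69, edgeR adjusted p = 0.0451). Of 10 genes of import through TIM22, 1 was called after 2.5 days (Timm29, -0.59) and none after 8.5 days, beside 24% and 14.1% of all genes. Among markers of other cells, 3 of 5 endothelial genes were lower in Cre+ EDL after 2.5 days (summed 68.5 to 70.5 FPKM against 73.7 to 86.3 FPKM in Cre-). Of 6 fast-fibre markers, 4 were lower after 2.5 days and 2 after 8.5 days. Of the adipocyte markers, Cidea alone was higher at both days, and of 8 liver markers 4 were lower after 8.5 days (summed 1.15 to 1.17 FPKM against 7.65 to 7.87 FPKM). The slow-fibre, macrophage, fibroblast, satellite cell, Schwann cell, tendon and erythroid lists had no call in EDL at either day. Between Cre- EDL and SOL, EDL was higher for 4 of 5 Schwann cell, 3 of 5 erythroid, 2 of 5 fibroblast and 1 of 5 macrophage markers, lower for 1 of 5 endothelial markers, and higher for 1 and lower for 1 of 5 tendon markers. The part of these cells in the carriers' values was not tested.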

How the data were processed

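Poly(A) RNA of whole EDL and SOL was sequenced as stranded single-end reads. The deposited counts were made by the authors, who aligned reads to mm10 with STAR 2.5.3a and counted uniquely aligned reads on RefSeq exons with HOMER. The strand setting of the count is not given in the sources used here. FPKM was computed here from each count, the deposited exon length and the total count. The replicates are separate samples by the submitters' account.

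Counts were tested with edgeR 4.0.16 (R 4.3.3), using filterByExpr (minimum count 10), TMM and the quasi-likelihood test. The 16 libraries of 2.5 and 8.5 days were fitted as 8 groups (15372 genes) and the 5.5-day comparisons in all 24 libraries (15478 genes), with Benjamini-Hochberg adjustment over all genes. The authors tested pairs of groups with DESeq2, which is an alternative here (1.42.0). The test was checked on simulated counts. A count of 0 allows up to 3 counts, for counting error only.

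Deviations of same-numbered EDL and SOL libraries of 1 genotype correlated at r = 0.17 to 0.44 in all 6 cases across genes, so the numbers were taken to pair the muscles of a mouse. Those of Cre+ and Cre- correlated at -0.17 to 0.06 and were not taken as pairs.

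Members named with values were the 5 most abundant in Cre- EDL, those called at both EDL days (up to 8 in each direction), those called in SOL, in a difference of changes or at 5.5 days, the 5 largest differences each way between the muscles among members of at least 1 FPKM, and the other called members of each role group. The members, the role, partner and marker lists and the tests were chosen with earlier results of these data known. Protein sequences were not used here. The result of 1 partner list is not reported here.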

Additional observations from a re-analysis of the deposited data

Results flagged for a closer look

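For 2 members, or 4.65% of those tested, the OSKM-associated change differed between the muscles after 2.5 days by the test of the difference itself. That share was near the 4.25% of all genes called. The log2 fold change in EDL minus that in SOL was 2.81 for Slc25a13 (edgeR adjusted p = 0.025) and 2.31 for Slc25a38 (edgeR adjusted p = 0.00607). Leaving out 1 library at a time, the difference ranged from 1.89 to 3.37 for Slc25a13 and from 1.69 to 2.75 for Slc25a38. The Slc25a13 call was the less stable of the 2, as given above. The cause of either difference was not tested.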

How the results depend on the processing

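Of 732 recomputed values for 47 calls of single members, 637 stayed past the threshold, 95 did not, and 0 changed direction. These include the main fit read at adjusted p alone and at an absolute log2 fold change over 1. The first keeps every call by construction, and neither can change a direction. With an absolute log2 fold change over 1, the members called numbered 10 in EDL after 2.5 days, 6 in EDL after 8.5 days, 0 in SOL after 8.5 days and 7 between the muscles. With edgeR on the 4 libraries alone they were 5 in EDL after 8.5 days and 0 in SOL after 8.5 days, the EDL losses being 6 of the 7 falls (Slc25a4, Slc25a11, Slc25a33, Slc25a36, Slc25a42 and Slc25a47) and no rise. DESeq2 on the 4 libraries gave 6 and 2 in SOL after 2.5 and 8.5 days and 2 in EDL after 5.5 days. DESeq2 on the same libraries gave 4 in SOL after 2.5 days, 3 in EDL after 5.5 days, and 7 and 1 for the difference between muscles after 2.5 and 8.5 days. The 24-library fit gave 2 and 0 in SOL after 2.5 and 8.5 days and 7 for the difference after 2.5 days. That difference gave 5 with library size alone and 4 with no filter, and no filter gave 2 in EDL after 5.5 days. At least 10 counts in every library gave 0 in SOL after 8.5 days. The replicate block within day gave 0 in SOL after 8.5 days, and the block by mouse gave 5 for the difference after 2.5 days. The blocks moved no other count by over 1.5 times. The share of all genes called in each of these settings, and in the fits without 1 library below, is not given here. These counts therefore show how the member calls shift and cannot be set against all genes. The causes of these shifts were not tested.

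Leaving out each library in turn gave 12 to 18 members in EDL after 2.5 days, 3 to 11 after 8.5 days, 0 to 1 after 5.5 days, 0 in SOL after 8.5 days and 12 to 14 between the muscles. The difference between muscles ranged from 1 to 6 after 2.5 days (6 without Cre+ EDL replicate 1) and from 0 to 1 after 8.5 days, and the difference between EDL days from 0 to 5 (5 without Cre+ EDL 2.5-day replicate 1). With 2 libraries in a group, an exact permutation test cannot go below p = 0.333 (two-sided), so the calls rest on the spread shared across groups.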
